A study of Mus musculus with 18 samples.

Results

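The 10 genes Thbs1, Thbs2, Thbs3, Thbs4, Tnc, Sparc, Sparcl1, Postn, Spp1 and Tgfbi encode secreted proteins of the matricellular kind, and they were found by symbol among the 55469 Ensembl gene identifiers of the tables, each with 1 row. They were put forward as a family of the tumour matrix, with Thbs2, Tnc and Sparc named because they were higher in KO-TRAMP mice at 30 weeks, so the values of KO-TRAMP against WT-TRAMP at 30 weeks chose them and are given below as a description without a test. The study sequenced prostate RNA (lateral and ventral lobes) of male mice with the strain label C56NL/6N, in 18 libraries, 3 for each of 3 genotypes (WT-TRAMP, A537T-TRAMP and KO-TRAMP) at 10 and at 30 weeks of age. All 6 groups were TRAMP +/-, that is, they carried the transgene in which the probasin promoter expresses SV40 T antigens in prostate epithelium, and the WT-TRAMP mice were ELAC2+/+. KO-TRAMP mice were ELAC2-/- through Pb-Cre, which acts in prostate epithelium, whereas A537T-TRAMP mice were homozygous for the Ala537Thr substitution in every cell of the body, so stromal cells carried the substitution in A537T-TRAMP and were not targeted in KO-TRAMP. Libraries are named here by the number in the table headers: at 10 weeks WT-TRAMP are libraries 1 to 3, A537T-TRAMP 4 to 6 and KO-TRAMP 7 to 9, and at 30 weeks WT-TRAMP are 10 to 12, A537T-TRAMP 13 to 15 and KO-TRAMP 16 to 18.

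Matricellular proteins are secreted into the extracellular matrix, where they act on cells rather than as structural parts of the matrix. Many are abundant in development and wound repair, low in most resting adult tissues, and high in the stroma of tumours, where fibroblasts, smooth muscle, endothelial cells and macrophages make most of them. They bind integrins, CD36, CD47 and syndecans on the cell surface, and several also bind collagens, growth factors or proteases. Thrombospondins 1 and 2 (Thbs1, Thbs2) form trimers that inhibit blood vessel growth through CD36, thrombospondins 3 and 4 (Thbs3, Thbs4) form pentamers, and Thbs4 is known from tendon, muscle and nervous tissue. Tenascin C (Tnc) is a many-armed glycoprotein that loosens adhesion, SPARC (Sparc) and its relative hevin (Sparcl1) bind collagen, periostin (Postn) and the related TGFBI (Tgfbi) share fasciclin domains and bind integrins, and osteopontin (Spp1) is a phosphoprotein of bone that tumour cells and macrophages also make.

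Promoter windows from RefSeq (GRCm38.p6, 250 bases before to 50 after a transcript start) were at hand for 8 of the 10 genes, in 11 windows. The windows of Thbs2, Tnc and Sparc are shown because these genes had the 3 changes that put the family forward. Capitals mark every match, on either strand, to the AP-1 word TGANTCA, the TEAD word GGAATG, the TATA word TATAAA or the SMAD box CAGAC, and no match overlapped another in these 3 windows.
Thbs2, chr17:14694213-14694512, minus strand: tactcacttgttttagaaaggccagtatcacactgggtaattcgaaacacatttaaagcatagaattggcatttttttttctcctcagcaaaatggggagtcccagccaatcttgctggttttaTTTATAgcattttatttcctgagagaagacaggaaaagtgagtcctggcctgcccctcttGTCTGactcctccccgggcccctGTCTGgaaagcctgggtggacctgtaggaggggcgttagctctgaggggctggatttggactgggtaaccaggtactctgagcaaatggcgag
Tnc, chr4:64046966-64047265, minus strand: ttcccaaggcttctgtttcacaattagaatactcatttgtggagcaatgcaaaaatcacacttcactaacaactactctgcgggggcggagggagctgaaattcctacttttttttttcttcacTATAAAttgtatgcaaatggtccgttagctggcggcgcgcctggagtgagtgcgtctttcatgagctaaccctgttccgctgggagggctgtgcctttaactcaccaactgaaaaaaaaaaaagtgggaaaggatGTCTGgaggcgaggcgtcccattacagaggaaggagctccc
Sparc, chr11:55420031-55420330, minus strand: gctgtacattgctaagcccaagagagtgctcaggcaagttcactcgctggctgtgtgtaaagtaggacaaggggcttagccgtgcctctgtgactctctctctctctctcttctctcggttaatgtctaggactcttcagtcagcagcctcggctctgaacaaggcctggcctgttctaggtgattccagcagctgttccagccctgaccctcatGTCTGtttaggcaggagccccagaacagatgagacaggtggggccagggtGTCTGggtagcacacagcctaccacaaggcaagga
Thbs2 and Tnc each held 1 TATA word, which for Thbs2 lay on the opposite strand, and Sparc held none; 5 of the 11 windows (those of 4 of the 8 genes, since the 2 windows of Tnc overlap and share their word) held it, against 13.6% of all 32851 windows of that length. The SMAD box, a short word, was in 9 of the 11 windows and in 49.6% of all windows, the TEAD word was in 1 (that of Thbs4) and in 14.7% of all, and the AP-1 word was in none of the 11 and in 7.81% of all. These are letters in a window and were not tested as binding sites.

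The genes lie on 7 chromosomes of GRCm38 (positions from GENCODE vM21). Thbs1 is at chr2:118111876-118127133 and Thbs2 at chr17:14665500-14694235, Thbs3 at chr3:89215180-89226837 and Thbs4 at chr13:92751590-92794818. Tnc is at chr4:63959785-64047015, Sparc at chr11:55394500-55423183, Postn at chr3:54361109-54391037 and Tgfbi at chr13:56609523-56639562. Sparcl1 (chr5:104079111-104113733) and Spp1 (chr5:104435118-104441050) lie near each other. Annotated genes on the opposite strand overlap Thbs1, Thbs3, Tnc and Sparcl1, and counting was stated to use strand; Gm42793, a transcript of uncertain status, overlaps Spp1 on its own strand.

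The authors' tables give normalized counts, that is, estimated read counts divided by 1 size factor per library, and each line and age has its own table, so that levels are compared within a table. Libraries held 9380174 to 14830104 reads. The whole-gene count of Elac2, which cannot show the loss of a single exon, was not called in any comparison, with a limma log2 fold change in KO-TRAMP of -0.22 (adjusted p = 0.808) at 10 weeks and of -0.19 (adjusted p = 0.522) at 30 weeks. Marker lists separated some libraries from others. The summed normalized count of 9 secretory genes of the seminal vesicle, an organ removed at dissection, was 21.0 to 54.0 in the WT-TRAMP libraries at 10 weeks of the KO table, 99.8 to 180184 in KO-TRAMP and, in the A537T table, 5025 to 1156800 in A537T-TRAMP, and at 30 weeks it spanned 12.5 to 496917 within WT-TRAMP alone. The summed count of 10 neuroendocrine genes was 3310 in library 10, 1734 in library 12, 17518 in library 17 and 11086 in library 18, against 330 to 773 in the other 5 libraries at 30 weeks.

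Read per kilobase of exon, so that genes can be compared, the family was mostly 3 genes. Sparc made up 40.7 to 60.4% of the summed level of the 10 genes in the WT-TRAMP libraries at 10 weeks, Sparcl1 21.9 to 35.7% and Thbs1 8.53 to 16.2%. In WT-TRAMP at 30 weeks Sparcl1 led with 40.1 to 49.4% and Sparc held 16.7 to 23.0%, and Spp1 was uneven, at 20.7% in library 10, 1.65% in library 11 and 12.5% in library 12. In KO-TRAMP at 30 weeks the order depended on the library: Sparc led in library 16 with 41.1%, and Sparcl1 led in library 17 with 37.5% and in library 18 with 31.6%, with Thbs1 at 26.3% in library 17. Thbs3 and Thbs2 were at or below 2.71% in every library.

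**Figure D1:**
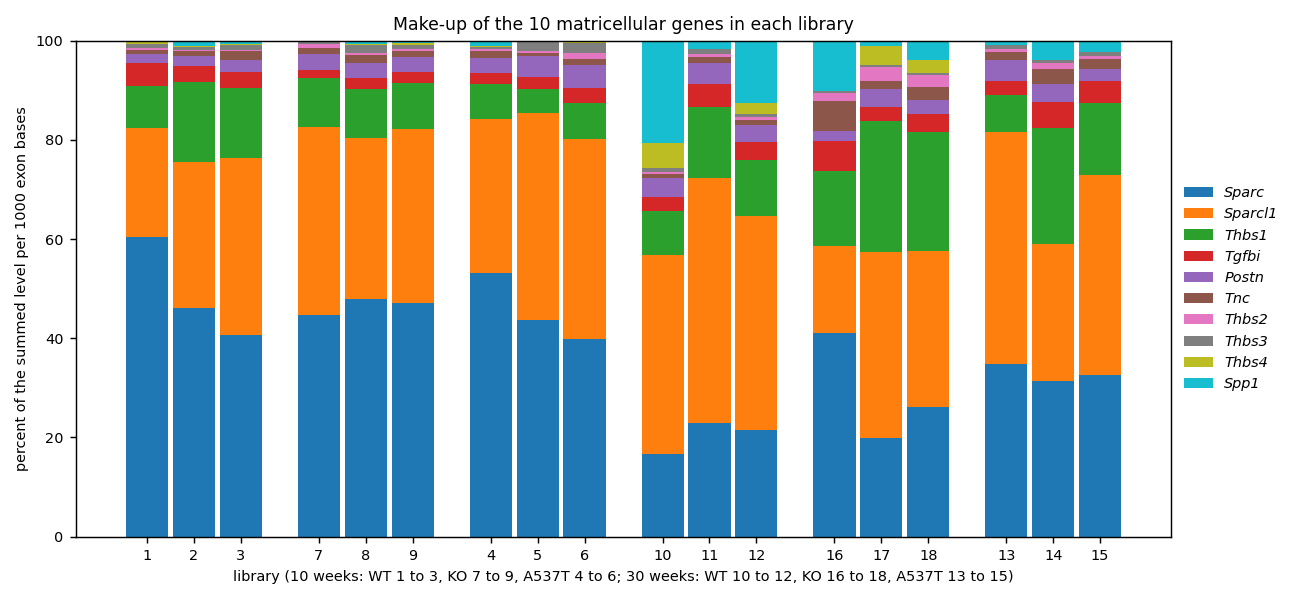
Share of each of the 10 matricellular genes in the summed level per exon kilobase (y axis, percent), 1 stacked bar per library (x axis, libraries grouped by age and genotype). Sparc, Sparcl1 and Thbs1 fill most of every bar, Sparc is largest in library 1 (60.4%), and Spp1 is visible at the top of libraries 10, 12 and 16.

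At 30 weeks all 10 genes had a higher mean on the log2 scale in KO-TRAMP than in WT-TRAMP, and for Thbs1, Thbs2, Thbs3, Tnc, Sparc and Tgfbi every KO-TRAMP library lay above every WT-TRAMP library. Of all 16900 genes tested, 10.8% were higher and 9.48% lower without overlap. The median log2 fold change of the 10 genes was 1.37, against 0.01 over all genes. This comparison chose the family, and nothing is read from these counts. The higher means of Thbs4 and Spp1 rested on library 11: without it their log2 fold changes were -0.51 and -0.91, and that of Spp1 was also below 0 without library 16 (-0.30), by edgeR (-0.13) and by DESeq2 (-0.14). The ratio of the Spp1 means was 0.914.

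Thbs2, an inhibitor of vessel growth, had normalized counts of 34.7, 37.4 and 46.7 in WT-TRAMP libraries 10 to 12 and of 243, 647 and 493 in KO-TRAMP libraries 16 to 18. The ratio of the means was 11.6 and the log2 fold change 3.41. Its sister Thbs1, the better known activator of latent TGF-beta, had 688, 769 and 701 in WT-TRAMP and 2054, 5466 and 4220 in KO-TRAMP, with a ratio of 5.44. Both were lowest in library 16 and highest in library 17 among the KO-TRAMP libraries, and the groups did not overlap for either.

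Tnc, the tenascin of wound and tumour stroma, ran the other way within KO-TRAMP. Its normalized counts were 91.8, 88.3 and 77.5 in WT-TRAMP and 1035, 443 and 637 in KO-TRAMP, with a ratio of 8.21 and a log2 fold change of 2.94. Sparc, which binds collagen and assists its assembly, had 803, 769 and 840 in WT-TRAMP and 3441, 2582 and 2877 in KO-TRAMP, with a ratio of 3.69. Tgfbi, a protein induced by TGF-beta, had 132, 152 and 144 in WT-TRAMP and 503, 366 and 404 in KO-TRAMP, with a ratio of 2.98. For these 3 genes library 16 was the highest of all 6 libraries and library 17 the lowest of the KO-TRAMP libraries.

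Sparcl1 and Postn were higher in part of the KO-TRAMP libraries. Sparcl1 had 1495, 1282 and 1304 in WT-TRAMP and 1136, 3766 and 2709 in KO-TRAMP, so that library 16 lay below all WT-TRAMP libraries and libraries 17 and 18 above them. Postn had 420, 328 and 303 in WT-TRAMP and 369, 1072 and 703 in KO-TRAMP, with library 16 inside the WT-TRAMP range. Thbs3 differed least among the genes without overlap, with 42.5, 37.4 and 31.9 in WT-TRAMP and 54.5, 91.8 and 57.4 in KO-TRAMP, a ratio of 1.82. Its estimated reads in these WT-TRAMP libraries differed between the tables of this age, with values up to 51.6 in the A537T table. How far its lack of overlap depends on these estimates was not tested.

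**Figure D2:**
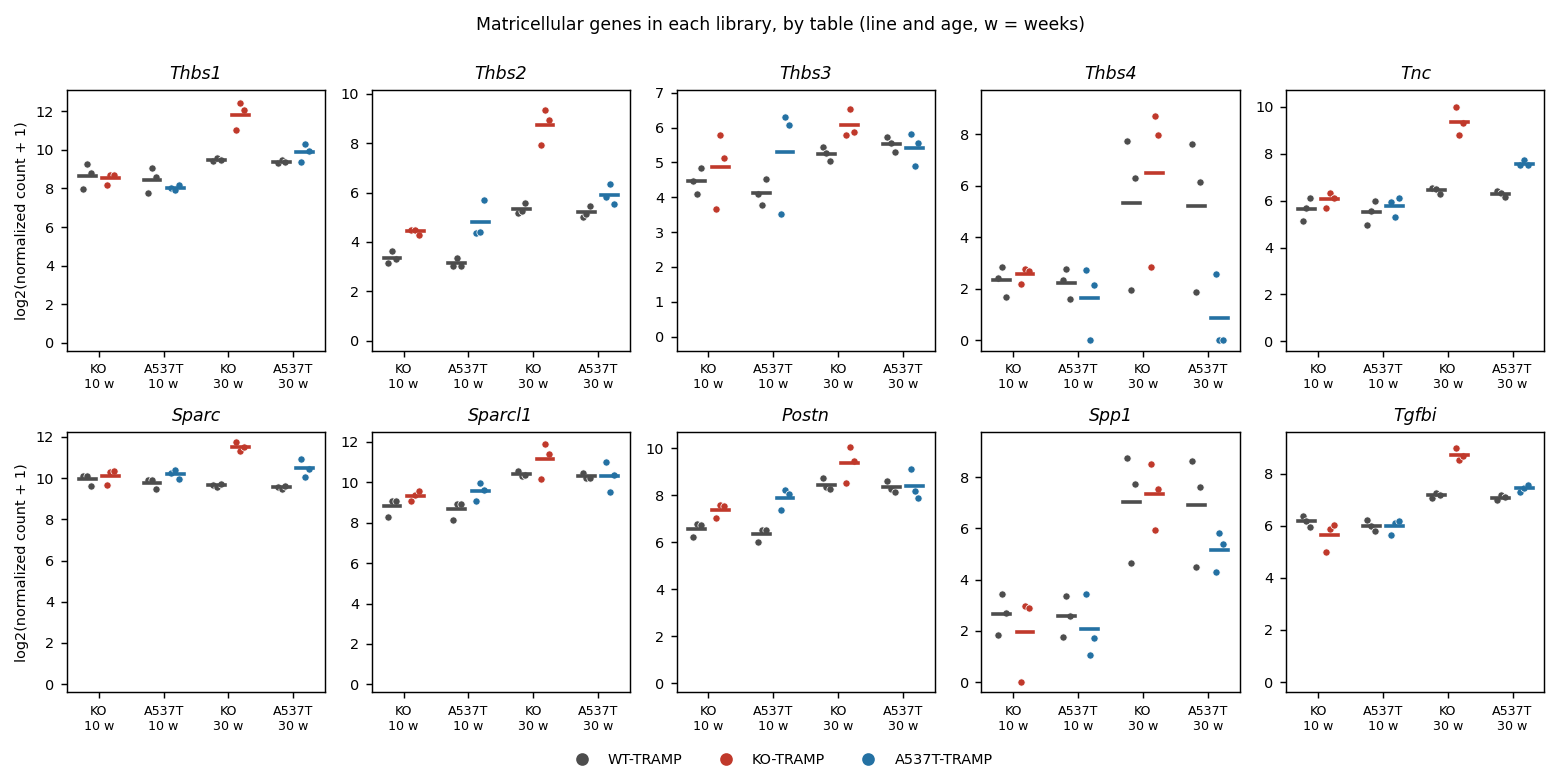
Each panel plots 1 gene as log2(normalized count + 1) (y axis) in the 4 tables (x axis, line and age in weeks), with 1 point per library, WT-TRAMP in grey, KO-TRAMP in red and A537T-TRAMP in blue, and the group mean as a bar. The red points of Thbs2, Tnc, Sparc and Tgfbi at 30 weeks stand above all grey points of their table, and Thbs4 and Spp1 spread over several log2 units within WT-TRAMP at 30 weeks.

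Thbs4 and Spp1 varied most within groups. Thbs4 had 211, 2.88 and 77.5 in WT-TRAMP and 6.17, 417 and 249 in KO-TRAMP, so it was high in libraries 10, 12, 17 and 18 and near 0 in libraries 11 and 16. Those 4 libraries also had the highest summed counts of the 10 neuroendocrine genes (1734 to 17518), and the other 2 had 339 and 330; the groups overlapped for each gene of that list, Scg2 and Scg3 were at 0 in both libraries 11 and 16, no gene of it was at 0 in all 6, and its part in the Thbs4 values was not tested. Spp1 had 433, 24.0 and 212 in WT-TRAMP and 366, 61.2 and 184 in KO-TRAMP, and within each group the summed seminal vesicle count had the same order (496917, 12.5 and 220700 in WT-TRAMP, 30919, 75.8 and 11632 in KO-TRAMP), whose part was likewise not tested.

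**Figure D3:**
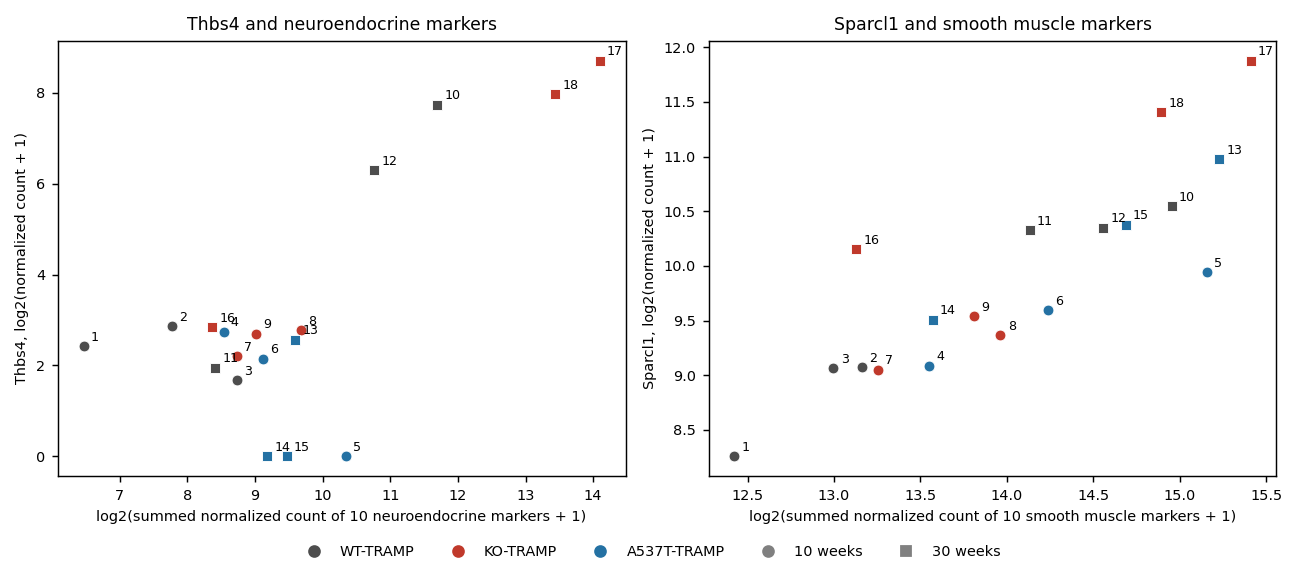
Left, Thbs4 (y axis, log2(normalized count + 1)) against the summed normalized count of 10 neuroendocrine genes (x axis, log2 scale); right, Sparcl1 against the sum of 10 smooth muscle genes; each point is 1 library with its number, colours give the genotype, circles are 10 weeks and squares 30 weeks. Libraries 10, 12, 17 and 18 stand apart at the top right for Thbs4, and Sparcl1 is higher in libraries with more smooth muscle signal, with library 16 above the others at the same x value.

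Most fibroblast, macrophage and endothelial marker genes were also higher without overlap in KO-TRAMP at 30 weeks, and smooth muscle genes were not. Over all genes in this comparison, 10.8% were higher and 9.48% lower without overlap. All 10 fibroblast genes (Col1a1, Col1a2, Col3a1, Dcn, Lum, Pdgfra, Pdgfrb, Fn1, Vim and Fap) were higher without overlap in KO-TRAMP at 30 weeks, and their summed count was 6349 to 6787 in WT-TRAMP and 21416 to 26562 in KO-TRAMP. For macrophage genes 9 of 10 were higher without overlap (sums of 1578 to 1865 and 3938 to 4799), and for endothelial genes 7 of 10 (581 to 713 and 901 to 3702), whereas for smooth muscle genes none of 10 was (17952 to 31726 and 8965 to 43525), and no gene of these lists was at 0 in all 6 libraries. The part of these cell types in the result was not tested, and in whole tissue more cells of a type and more RNA per cell cannot be told apart.

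Set against the summed fibroblast count of its own library, the family divided. Sparc was 11.9 to 12.4% of that sum in WT-TRAMP and 12.1 to 12.95% in KO-TRAMP at 30 weeks, with overlapping ranges. Tnc was 1.142 to 1.39% in WT-TRAMP and 2.07 to 3.90% in KO-TRAMP, and Thbs2 was 0.516 to 0.689% and 0.914 to 3.02%, so both were higher relative to the fibroblast sum, without overlap. Tgfbi (1.96 to 2.39% and 1.71 to 1.89%), Thbs3 (0.470 to 0.632% and 0.205 to 0.429%) and Sparcl1 (19.2 to 22.2% and 4.28 to 17.6%) were lower relative to it, again without overlap. These ratios use the comparison that chose the genes and are a description.

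The A537T-TRAMP mice at 30 weeks were not used to choose the genes, although they share their 3 WT-TRAMP libraries with that comparison. Of the 10 genes 6 had a higher and 4 a lower mean on the log2 scale, with a median log2 fold change of 0.21 (0.068 without library 13, 0.31 without library 14 or 15), against 0.00 over all genes. Tnc, Sparc, Thbs2 and Tgfbi were higher in every A537T-TRAMP library than in any WT-TRAMP library, by 2.48-fold at most, but limma called none of the 10 genes at an adjusted p under 0.05. It called 0.0% of the 16261 genes tested, where 7.21% had an unadjusted p under 0.05 and 7.36% were higher and 6.03% lower without overlap; DESeq2 called 166 genes, with Tnc and Sparc among them, and edgeR called 0.

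Tnc, the largest difference of the 10 upward, had normalized counts of 83.3, 78.9 and 69.3 in WT-TRAMP libraries 10 to 12 and of 182, 210 and 183 in A537T-TRAMP libraries 13 to 15, with means of 77.2 ± 7.12 and 192 ± 15.7 (SD, n = 3 each). The log2 fold change was 1.30 (95% interval 0.95 to 1.66), with an adjusted p of 0.137 by limma and of 3.85e-06 by DESeq2, and limma called it without library 11 (adjusted p = 0.0438). Sparc had 754, 716 and 782 in WT-TRAMP and 1929, 1061 and 1384 in A537T-TRAMP, a log2 fold change of 0.92 (95% interval 0.44 to 1.39; limma adjusted p = 0.436, DESeq2 adjusted p = 0.00277).

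Thbs2 had 31.6, 34.1 and 42.7 in WT-TRAMP and 55.7, 81.1 and 44.9 in A537T-TRAMP, a log2 fold change of 0.70 (95% interval 0.03 to 1.37; limma adjusted p = 0.684). Library 15 was only just above library 12. Tgfbi had 124, 143 and 135 in WT-TRAMP and 156, 175 and 188 in A537T-TRAMP, a log2 fold change of 0.36 (95% interval 0.03 to 0.70; limma adjusted p = 0.684). Thbs1 had 644, 714 and 651 in WT-TRAMP and 655, 1274 and 981 in A537T-TRAMP, so library 13 lay inside the WT-TRAMP range and the groups overlapped.

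Sparcl1 had 1383, 1177 and 1197 in WT-TRAMP and 2012, 727 and 1330 in A537T-TRAMP, with library 13 above and library 14 below all WT-TRAMP libraries, and its interval ran from -0.78 to 0.78 on the log2 scale. Postn (391, 304 and 281 against 563, 286 and 232) and Thbs3 (51.6, 45.7 and 38.4 against 54.9, 28.6 and 45.9) also straddled the WT-TRAMP values, with intervals from -0.70 to 0.81 and from -0.82 to 0.60. The WT-TRAMP values of Thbs3 were higher in this table than in the KO table, whereas those of the other 9 genes were lower, so its estimated reads in the same libraries differed between the tables. Thbs4 was 193, 2.69 and 70.4 in WT-TRAMP and 4.92, 0 and 0 in A537T-TRAMP, and library 11 fell among the A537T-TRAMP values. Spp1 was 399, 21.5 and 194 in WT-TRAMP and 18.8, 56.0 and 40.9 in A537T-TRAMP, where the seminal vesicle sum had the opposite order (626890, 35.8 and 292009).

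The fibroblast genes had a summed count of 5987 to 6421 in WT-TRAMP and 8398 to 13784 in A537T-TRAMP at 30 weeks, with 6 of 10 higher without overlap, and macrophage genes had 1512 to 1819 and 1956 to 3156, with 5 of 10 higher without overlap; their part in the result was not tested. Over all genes in this comparison, 7.36% were higher and 6.03% lower without overlap. Relative to the fibroblast sum, Tnc was 1.08 to 1.32% in WT-TRAMP and 1.32 to 2.499% in A537T-TRAMP and Sparc was 11.8 to 12.2% and 12.6 to 13.997%, and Thbs2 overlapped (0.496 to 0.665% and 0.404 to 0.965%). Sparcl1 (18.6 to 21.7% and 8.66 to 14.6%), Postn (4.37 to 6.13% and 2.21 to 4.08%), Thbs3 (0.598 to 0.810% and 0.341 to 0.436%) and Thbs4 (0.0449 to 3.03% and 0 to 0.0357%) were lower relative to it, without overlap. For Thbs4 this separation rests on counts near 0. Its lowest WT-TRAMP normalized count was 2.69 and its highest A537T-TRAMP normalized count 4.92, so the counts themselves overlapped.

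**Figure D4:**
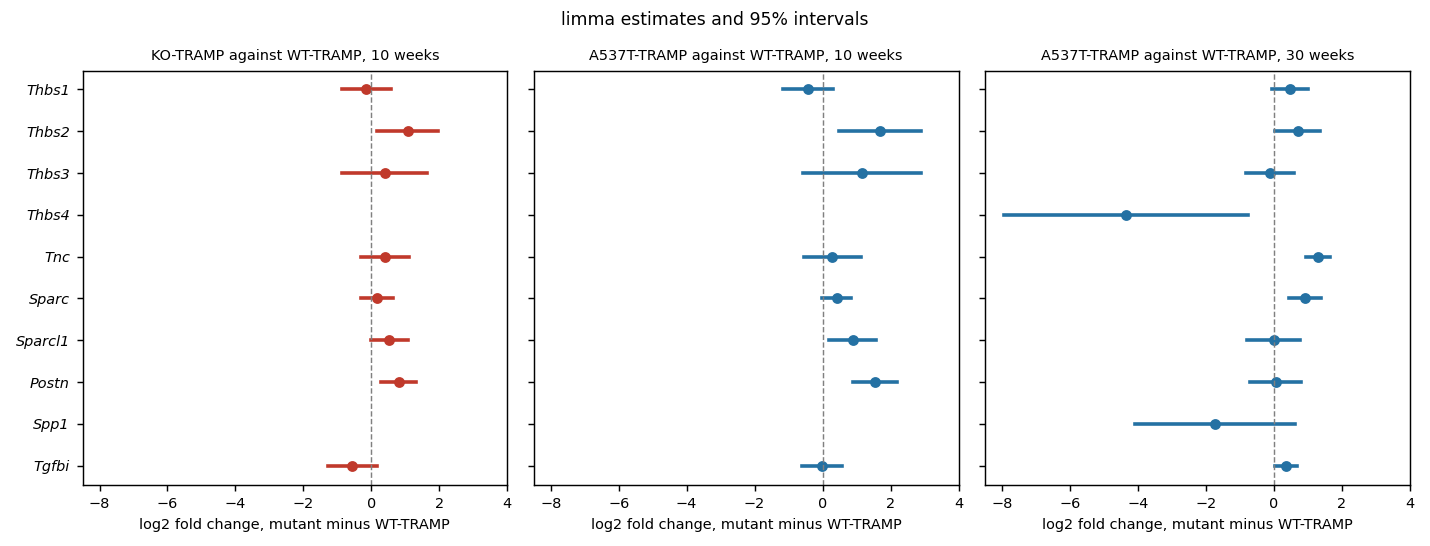
Log2 fold change of each gene, mutant minus WT-TRAMP (x axis), with its 95% interval from limma as a line, in the 3 comparisons that did not choose the genes; a gene without a point had a mean normalized count under 10. At 30 weeks in A537T-TRAMP the intervals of Tnc (0.95 to 1.66), Sparc (0.44 to 1.39), Thbs2 and Tgfbi (from 0.03 each) lie above 0. That of Thbs4 (-7.94 to -0.77) lies below 0, and those of the other genes include it. At 10 weeks the intervals of Postn and Thbs2 lie above 0 in both lines, as does that of Sparcl1 in A537T-TRAMP.

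At 10 weeks Thbs4 and Spp1 were below a mean of 10 normalized counts (at most 7 reads for Thbs4 and 12 for Spp1 in any library), and the other 8 genes were tested. In A537T-TRAMP 6 of the 8 had a higher mean and Thbs2, Sparc, Sparcl1 and Postn were higher without overlap, against 6.92% of all 15438 genes higher and 6.53% lower. None of the 8 was called by limma, which called 0.00648% of all genes; 7.89% of genes had an unadjusted p under 0.05, DESeq2 called 148 genes with Postn among them, and edgeR called 0. The median log2 fold change of the 8 genes was 0.66, against -0.01 over all genes.

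Postn, the periostin of collagen-rich stroma, had normalized counts of 63.5, 91.0 and 89.9 in WT-TRAMP libraries 1 to 3 and of 167, 302 and 266 in A537T-TRAMP libraries 4 to 6, with means of 81.4 ± 15.6 and 245 ± 69.9 (SD, n = 3 each). The log2 fold change was 1.55 (95% interval 0.91 to 2.20), with an adjusted p of 0.600 by limma and of 0.000973 by DESeq2, and limma called it without library 4 (adjusted p = 0.0491). Thbs2 had 7.23, 9.21 and 7.07 in WT-TRAMP and 19.5, 19.9 and 51.6 in A537T-TRAMP, which rests on 7 to 9 reads per WT-TRAMP library; the log2 fold change was 1.69 (95% interval 0.48 to 2.89; limma adjusted p = 0.600). Library 6 carried much of the mean, and libraries 4 and 5 alone were still above all WT-TRAMP libraries.

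Sparcl1 had 276, 486 and 481 in WT-TRAMP and 543, 984 and 774 in A537T-TRAMP, a log2 fold change of 0.89 (95% interval 0.20 to 1.58; limma adjusted p = 0.600). Sparc had 970, 972 and 701 in WT-TRAMP and 1208, 1324 and 991 in A537T-TRAMP, a log2 fold change of 0.42 with an interval that reached -0.01. Tnc (30.5, 46.1 and 61.6 against 60.2, 38.7 and 68.8) and Tgfbi (73.1, 63.3 and 54.5 against 49.6, 68.5 and 72.2) overlapped, with intervals from -0.55 to 1.13 and from -0.60 to 0.58. Thbs1 was the one gene with all 3 A537T-TRAMP libraries in the lower part of the WT-TRAMP range (213, 530 and 381 against 257, 238 and 290), and Thbs3 was split, with library 4 at 10.6 and libraries 5 and 6 at 77.4 and 66.5 against 12.7 to 22.2 in WT-TRAMP.

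Smooth muscle genes were higher in the same libraries. All 10 were higher without overlap in A537T-TRAMP at 10 weeks, with a summed count of 4872 to 8149 in WT-TRAMP and 11990 to 36487 in A537T-TRAMP, and none was at 0 in all 6 libraries. Over all genes in this comparison, 6.92% were higher and 6.53% lower without overlap. For fibroblast genes 5 of 10 were higher without overlap (3528 to 5182 and 6029 to 8012), and 8 of 9 seminal vesicle genes were (19.3 to 49.5 and 5025 to 1156800), with library 5 the highest in both smooth muscle and seminal vesicle sums; the part of these tissues in the result was not tested. Relative to the fibroblast sum, Postn (1.31 to 2.55% and 2.77 to 3.77%) and Thbs2 (0.149 to 0.200% and 0.248 to 0.661%) were higher without overlap, and Thbs1 (4.38 to 10.8% and 2.97 to 4.27%) and Tgfbi (1.22 to 1.55% and 0.823 to 0.925%) lower.

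In KO-TRAMP at 10 weeks 6 of the 8 genes tested had a higher mean, and Thbs2 and Postn were higher without overlap, against 5.77% of all 15451 genes higher and 6.26% lower. None of the 8 was called by limma, DESeq2 or edgeR, which called 2, 83 and 0 genes in all (0.0129% by limma), and 6.64% of genes had an unadjusted p under 0.05. The median log2 fold change was 0.40, against -0.01 over all genes, and it was 0.16 without library 8 and 0.62 without library 7.

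Thbs2 had 7.87, 11.2 and 8.81 in WT-TRAMP and 21.6, 21.5 and 18.4 in KO-TRAMP libraries 7 to 9, with means of 9.31 ± 1.74 and 20.5 ± 1.84 (SD, n = 3 each) and a log2 fold change of 1.07 (95% interval 0.17 to 1.97; limma adjusted p = 0.716). The 3 KO-TRAMP libraries lay close together, each on 20 to 24 reads. Postn had 74.3, 107 and 106 in WT-TRAMP and 130, 193 and 184 in KO-TRAMP, a log2 fold change of 0.81 (95% interval 0.29 to 1.33; limma adjusted p = 0.710). The comparisons of both lines at this age use the same WT-TRAMP libraries.

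Sparcl1 had 305, 537.4 and 535 in WT-TRAMP and 530, 659 and 744 in KO-TRAMP, and library 7 fell just inside the WT-TRAMP range. Tgfbi had 83.1, 72.5 and 61.7 in WT-TRAMP and 30.6, 57.8 and 64.3 in KO-TRAMP, a log2 fold change of -0.56 (95% interval -1.28 to 0.16), the lowest of the 8. Thbs1, Tnc and Sparc overlapped, with intervals from -0.87 to 0.58, from -0.32 to 1.12 and from -0.31 to 0.65. Thbs3, at 11.7, 53.9 and 34.0, spanned the WT-TRAMP values of 16.2 to 27.5.

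Smooth muscle genes in KO-TRAMP at 10 weeks had a summed count of 9753 to 15965, against 5496 to 9177 in WT-TRAMP, with 5 of 10 higher without overlap, and for fibroblast genes 1 of 10 was higher and 1 lower (4604 to 6801 and 3904 to 5688). Over all genes in this comparison, 5.77% were higher and 6.26% lower without overlap. The fibroblast numbers were near these shares, and nothing is read from them. Neither marker list had a gene at 0 in all 6 libraries, and the part of these cell types in the result was not tested. Relative to the fibroblast sum, Thbs2 was 0.148 to 0.226% in WT-TRAMP and 0.270 to 0.469% in KO-TRAMP, without overlap, and Postn overlapped in 1 library (1.398 to 2.71% and 2.701 to 2.87%). Sparc (19.1 to 20.4% and 17.6 to 19.0%) and Tgfbi (1.27 to 1.58% and 0.664 to 0.945%) were lower relative to it, without overlap.

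**Figure D5:**
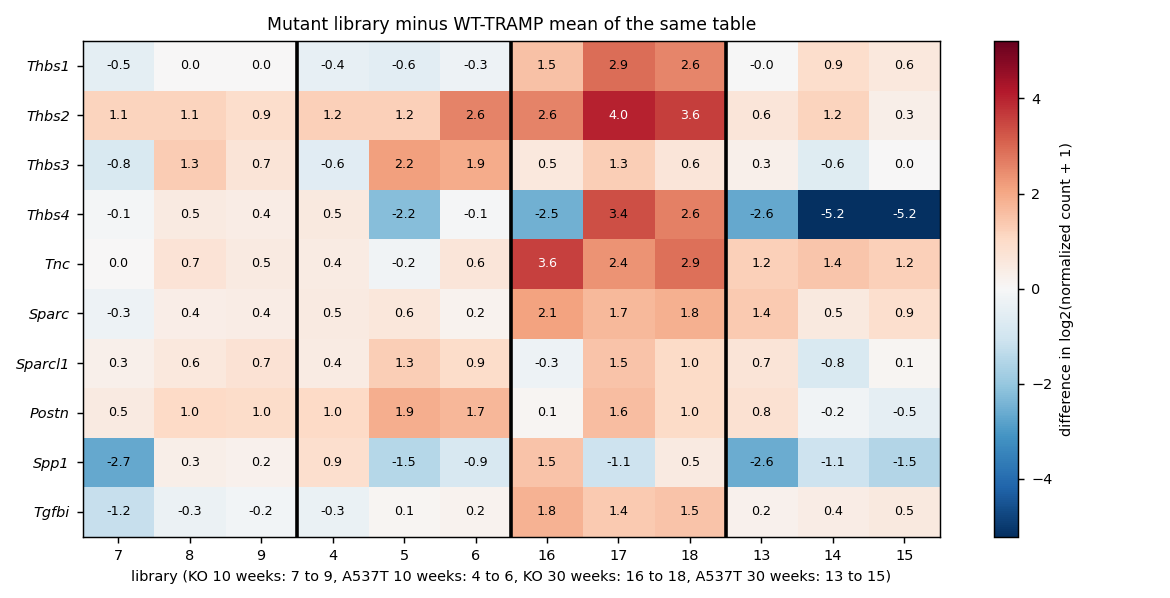
Difference in log2(normalized count + 1) between each mutant library (x axis, by line and age) and the WT-TRAMP mean of its table, for each gene (y axis), red higher and blue lower, with the value in each cell. The row of Thbs2 is above 0 in all 12 mutant libraries, but its values in libraries 16 to 18 put it forward, and both lines of an age share their WT-TRAMP libraries. Library 16 departs from libraries 17 and 18 for Thbs4, Sparcl1 and Postn, and Thbs4 is lowest in libraries 14 and 15.

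Whether the A537T-TRAMP effect differed between ages was tested with an interaction term over 12 libraries for the 8 genes tested at both ages, and none was called (0.0% of 15242 genes, with 6.08% at an unadjusted p under 0.05). The effect of Postn was lower at 30 than at 10 weeks on the log2 scale (-1.496, 95% interval -2.496 to -0.50; adjusted p = 0.738), and that of Tnc was higher by 1.01 (95% interval 0.16 to 1.86; adjusted p = 0.738). For Sparc the difference was 0.49, with an interval from -0.14 to 1.13, and for Thbs2 -0.99, from -2.20 to 0.23. At 30 weeks this test used WT-TRAMP libraries 10 to 12, which also served the comparison that chose the genes, so it is not free of that choice. The same test was not made for KO-TRAMP, because its 30-week comparison chose the genes.

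Across the 6 groups, levels were set side by side as RPM, the reads of a gene scaled to one common library total, which joins tables normalized separately and so serves as a description. Thbs2 ran from 0.799 in WT-TRAMP at 10 weeks through 1.84 (KO-TRAMP, 10 weeks), 2.74 (A537T-TRAMP, 10 weeks), 3.42 (WT-TRAMP, 30 weeks) and 5.33 (A537T-TRAMP, 30 weeks) to 42.1 in KO-TRAMP at 30 weeks. The ranges of KO-TRAMP and A537T-TRAMP at 10 weeks overlapped, as did those of A537T-TRAMP at 10 weeks and WT-TRAMP at 30 weeks, and the other neighbours did not. Tnc lay at 4.39 to 7.41 in 4 groups whose ranges overlapped with their neighbours, and stood apart at 16.9 in A537T-TRAMP and 63.0 in KO-TRAMP at 30 weeks. Sparc was lowest in WT-TRAMP at 30 weeks (69.4) and highest in KO-TRAMP at 30 weeks (267), and the neighbours among the lower 5 groups overlapped.

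In WT-TRAMP, Tgfbi and Postn were at 6.23 and 8.22 RPM at 10 weeks and at 12.3 and 30.3 at 30 weeks, without overlap. Sparcl1 (39.4 and 118), Thbs1 (37.1 and 62.1), Tnc (4.39 and 7.41), Thbs2 (0.799 and 3.42) and Thbs3 (1.85 and 3.22) were also higher at 30 weeks without overlap. Sparc (84.8 and 69.4) and Thbs4 (0.367 and 8.48) had overlapping ranges. How many of all genes differed between these ages was not counted, so nothing is read from how many members were higher at 30 weeks. Spp1 was at 0.517 at 10 weeks and, also without overlap, at 19.4 at 30 weeks in WT-TRAMP, where its 3 libraries held 387, 25 and 186 reads.

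Once group means were removed, some members moved together and others did not. Over the 18 libraries, the deviation of each gene from its own group mean gave a Pearson r of 0.87 between Sparcl1 and Postn and of 0.63 between Thbs1 and Thbs2, and the other 8 pairs of Thbs2 lay between -0.50 (with Sparc) and 0.47. Thbs3 had 0.60 with Postn, 0.56 with Tgfbi and 0.54 with Sparcl1. Thbs4 had 0.55 with Postn and 0.52 with Sparcl1, and Tnc had 0.56 with Spp1. All remaining pairs lay between -0.50 (Thbs2 with Sparc) and 0.49 (Sparc with Tgfbi). Among 9596 genes with a mean of at least 100 in every table, those most like Thbs2 were Eml2 (r = 0.94), Cntrob (0.90) and Nsmce2 (0.88), those most like Tnc were Ints6l, Plscr2 and Apaf1 (0.87 each), and those most like Sparc were Nid1, Plcg1 and Ptcd2 (0.84 each), with Nid1 encoding a basement membrane glycoprotein. No member was the closest gene of another. Sparcl1 was closest to Lmod1 (0.98), Tpm1 (0.96) and Cnn1 (0.95), of which Lmod1 and Cnn1 were on the smooth muscle list; Sparcl1 was singled out here after its values were seen. All these correlations rest on the same 18 libraries and, for each pair, on shared size factors. The closest genes are the highest of 9596, and how high unrelated genes would reach was not tested.

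The wider family was read from a list of 18 other matricellular genes (tenascins, CCN proteins, SPARC-like and SMOC proteins) and 18 receptors (integrins, syndecans, CD36, CD47, CD44 and others). None of either list was called by limma in the 3 comparisons that did not choose the family. Of all genes tested in A537T-TRAMP at 30 weeks, 7.36% were higher and 6.03% lower without overlap. In A537T-TRAMP at 30 weeks 4 of 14 matricellular genes tested were higher without overlap and 0 lower, led by Tnxb, a tenascin of connective tissue, at 291 to 360 in WT-TRAMP and 560 to 872 in A537T-TRAMP (log2 fold change 1.08, limma adjusted p = 0.235), and the lowest was Ccn3, at 9.86 to 926 and 10.96 to 20.5 (-3.28, limma adjusted p = 0.703). Of the 18 receptors 6 were higher and 1 lower without overlap, from Stab1, a scavenger receptor that takes up SPARC (log2 fold change 0.77, limma adjusted p = 0.428), to Cd36, a receptor of Thbs1 and Thbs2, at 94.8 to 281 and 47.7 to 77.0 (-1.67, limma adjusted p = 0.504). The summed count of 8 adipocyte genes (Adipoq, Plin1, Fabp4, Cidec, Lep, Lipe, Plin4 and Retn) was 1118 to 1779 in WT-TRAMP and 512 to 764 in A537T-TRAMP. Its part in the Cd36 values was not tested.

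At 10 weeks the A537T-TRAMP libraries had 4 of 15 other matricellular genes higher and 1 lower without overlap, from Spock2 (log2 fold change 1.51) to Ccn1, an immediate early gene (-1.34), and 4 of 18 receptors higher and 1 lower, from the integrin subunit Itgb3 (5.62 to 18.4 in WT-TRAMP and 24.4 to 46.4 in A537T-TRAMP, 1.59) to Sdc4 (-0.70), each with a limma adjusted p of 0.600. KO-TRAMP at 10 weeks had 3 of 15 higher and 0 lower, from Smoc1 (0.96) to Ccn3 (-0.92), and 2 of 18 receptors higher and 1 lower, from Itga5 (1.04) to Sdc4 (-0.29). Over all genes at 10 weeks, 6.92% were higher and 6.53% lower without overlap in A537T-TRAMP, and 5.77% and 6.26% in KO-TRAMP. In KO-TRAMP at 30 weeks, described without a test, 7 of 15 were higher and 2 lower, from Spock3 (0.960 to 7.83 and 0 to 363, a log2 fold change of 3.73 that library 16 did not share) to Spock2 (-1.62), and 6 of 18 receptors were higher and 1 lower. Over all genes in that comparison 10.8% were higher and 9.48% lower without overlap. Itgb3, the beta subunit of the integrin that binds osteopontin, thrombospondins and periostin, was at 17.3 to 38.0 in WT-TRAMP and 63.8 to 539 in KO-TRAMP (3.16), and Cd36 was at 104 to 311 and 51.4 to 99.2 (-1.32). The adipocyte sum was 1175 to 1891 and 421 to 1075, and its part in the Cd36 values was likewise not tested.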

How the data were processed

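RNA of ventral and lateral prostate lobes was sequenced in 18 libraries (3 per group; 9380174 to 14830104 reads). Per the submitters' processing notes and the methods, reads were trimmed (Trim Galore 0.4.1, cutadapt 1.18), aligned to GRCm38.p6 with STAR 2.7.3a and quantified by strand with Salmon. The authors deposited a signal per gene, the normalized count (estimated counts divided by 1 DESeq2 1.26 size factor per library), in 4 tables scaled separately; every value was a whole multiple of 1 read within 0.01. A WT-TRAMP library had the same estimated reads in both tables of its age for only 30.9 to 37.6% of genes above 0, so its values can differ between tables by more than scaling. Table headers give only library numbers, so the columns shared by both tables of an age were taken as WT-TRAMP, and 0 columns were left without a group. The methods name biological replicates, 3 of each mouse line; the labels do not tie libraries to animals, and p-values measure the spread between these libraries. The authors' own comparison tables hold shrunken fold changes and s-values and were not used.

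Each line was compared with WT-TRAMP in its own table with limma 3.58.1 (R 4.3.3; trend, two-sided) on the log2 of the normalized count plus 1, for every gene averaging at least 10, with Benjamini-Hochberg adjustment over all genes and a threshold of 0.05. This scale understates the change of low genes. An exact permutation test of 3 against 3 libraries cannot give a p under 0.1. The fit was tested on simulated counts. Alternatives were a pseudocount of 0.5, no minimum, TMM scaling, edgeR 4.0.16, DESeq2 1.42.0 and leaving out each library. The members and all gene lists were chosen with earlier results of these data known. Text names all 10 members, and of the other matricellular and receptor lists each gene called and the highest and lowest per comparison; the 3 most correlated genes are given for Thbs2, Tnc and Sparc. Gene symbols came from GENCODE vM21 (55107 of 55469 identifiers matched), an earlier release than that of the authors, and promoter windows from RefSeq. The single values of 1 marker gene are not reported here.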

Additional observations from a re-analysis of the deposited data

Results flagged for a closer look

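Tgfbi was the one member whose mutant libraries all lay on opposite sides of the WT-TRAMP mean at the 2 ages of 1 line: the difference from the WT-TRAMP mean in log2(normalized count + 1) averaged -0.56 in KO-TRAMP at 10 weeks (libraries 7 to 9 at -1.21, -0.31 and -0.16) and 1.56 at 30 weeks (libraries 16 to 18 at 1.82, 1.36 and 1.499). At 10 weeks the groups overlapped (30.6 to 64.3 against 61.7 to 83.1 normalized counts). The difference between the ages was not tested, because the comparison at 30 weeks chose the genes.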

How the results depend on the processing

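No paired analysis was possible because the table columns carry no replicate number. Of the single-gene values that did not choose the family, 82 of 88 (A537T-TRAMP, 10 weeks), 100 of 110 (A537T-TRAMP, 30 weeks), 85 of 88 (KO-TRAMP, 10 weeks) and 104 of 104 (age difference) kept their direction and their side of the threshold over all alternatives. Scaling moved the median of all genes by under 0.1. With DESeq2, limma's counts of genes called (KO-TRAMP 10 weeks 2, A537T-TRAMP 10 weeks 1, A537T-TRAMP 30 weeks 0, KO-TRAMP 30 weeks 36) became 83, 148, 166 and 805, and 1 member was called in A537T-TRAMP at 10 weeks (Postn, log2 fold change 1.60) and 2 at 30 weeks (Tnc, 1.30, and Sparc, 0.95), where limma called 0. With edgeR the counts became 0, 0, 0 and 15; with a pseudocount of 0.5 the count in A537T-TRAMP at 10 weeks became 0. Tgfbi in A537T-TRAMP at 10 weeks turned from -0.01 to 0.0035 (TMM) and 0.0082 (edgeR), and Sparcl1 in A537T-TRAMP at 30 weeks from -0.00 to 0.11 (edgeR and DESeq2). The cause was not tested.

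Leaving out 1 library at a time, genes called ranged from 1 to 9 (KO-TRAMP, 10 weeks), 0 to 65 (A537T-TRAMP, 10 weeks; 65 without library 4), 0 to 145 (A537T-TRAMP, 30 weeks; 145 without library 11), 0 to 3064 (KO-TRAMP, 30 weeks; 3064 without library 16) and 0 to 5 (age difference). Members called ranged from 0 to 1 in A537T-TRAMP at either age, and the median log2 fold change of members ranged from 0.16 to 0.62 (KO-TRAMP, 10 weeks), 0.56 to 0.77 (A537T-TRAMP, 10 weeks), 0.068 to 0.31 (A537T-TRAMP, 30 weeks) and 1.24 to 1.69 (KO-TRAMP, 30 weeks). Single genes that changed sign were, at 10 weeks, Thbs1 (-0.51 to 0.15) and Thbs3 (-0.070 to 0.99) in KO-TRAMP and Tgfbi (-0.12 to 0.15) in A537T-TRAMP, and, at 30 weeks in A537T-TRAMP, Thbs3 (-0.30 to 0.16), Sparcl1 (-0.34 to 0.39) and Postn (-0.32 to 0.32), none of them called by limma; in KO-TRAMP at 30 weeks Thbs4 (-0.51 to 3.01) and Spp1 (-0.91 to 1.15) also changed sign. Depth limited Thbs2 at 10 weeks (7 to 45 reads) and left Thbs4 and Spp1 untested there.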
